A study of Drosophila melanogaster with 6 samples.

Results

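The 10 genes described here encode 9 subunits of the mitochondrial F1Fo-ATP synthase, Complex V of the OXPHOS system, and its assembly factor l(2)k14505. They were chosen by gene symbol from the 17494 genes of the deposited table of exon counts in adult flight muscles of Drosophila melanogaster. All 10 were found. The study that reported these data names l(2)k14505 among its most downregulated genes, in adults too, so its fall was already reported. The F1 part is represented by blw (alpha), ATPsynbeta, ATPsyngamma and ATPsyndelta. The membrane part Fo and the peripheral stalk are represented by ATPsynC (subunit c), ATPsynO (the oligomycin sensitivity conferring protein, OSCP), ATPsynB (subunit b), ATPsynD (subunit d) and ATPsynF (subunit f).

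The RNA came from indirect flight muscles dissected by hand from females aged 2 days, 30 flies per sample, and was polyA-selected and sequenced with a stranded kit. There were 3 WT samples (Mef2-GAL4 x w1888) and 3 M1BP RNAi samples (Mef2-GAL4 x M1BP RNAi, line #1), so the muscle driver Mef2-GAL4 was present in every sample and the hairpin against M1BP in the RNAi samples only. The driver is already active in the myoblasts, so the muscles developed with the knockdown. The 3 samples of a group are separate pools of flies, and the sources used here do not say whether they came from separate crosses, so p-values measure the spread between these pools.

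The ATP synthase uses the proton gradient of the inner mitochondrial membrane to make ATP. Protons crossing at the interface of subunit a with the ring of c subunits turn the ring and the central stalk (gamma, delta and epsilon), and the turning stalk drives the catalytic sites of the beta subunits in the alpha-beta head, which the peripheral stalk holds still. Assembly factors are not part of the finished enzyme but are needed to put its modules together, and flight muscle, whose mitochondria are packed with cristae, is among the tissues richest in this enzyme.

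M1BP is a zinc finger protein that binds Motif 1, a core promoter element. The Motif 1-like stretches that the study listed in the promoters of l(2)k14505 and of 5 subunits are shown here because Motif 1 is the element that the depleted factor binds. Each is written 5′ to 3′ as listed, and the capitals mark the 8 bases that match the Motif 1 core GGTCACAC best. The stretches of blw and ATPsynF are not shown here, and none was found in the list for ATPsynbeta or ATPsyngamma.
l(2)k14505: actacAGCCACACtgaaa
ATPsynC: gttatGGTCACACtgcgc
ATPsynD: gggtcGGTCACACtatca
ATPsyndelta: cggctGGTCACTCtgact
ATPsynO: gccctGGTCACAGctgag
ATPsynB: gatctGGCAACGCtctct
The core was exact in 2 of these 6 stretches, those of ATPsynC and ATPsynD. The stretch of l(2)k14505 (chromosome 2L) matched 6 of the 8 letters, with the substitutions G1A and T3C (the letter of the core, its position counted from 1 at the 5′ end of the core, and the letter of the stretch). That of ATPsyndelta (chromosome X) differed by A7T, that of ATPsynO (3R) by C8G, and that of ATPsynB (3L) by T3C, C4A and A7G. Of the 79 stretches of 18 bases that the study listed over all nuclear OXPHOS genes, 23 (29.1%) held the exact core on the listed strand. A match is a description of letters and says nothing about binding in these samples.

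The target of the RNAi was lower in the samples labelled as knockdown. M1BP was at 2.84, 2.35 and 2.27 CPM in WT samples 1 to 3, against 0.943, 0.954 and 0.990 CPM in the 3 M1BP RNAi samples, where CPM are counts per 1000000 of the library total scaled with edgeR's TMM factors, which correct for differences in composition. Its log2 fold change was −1.36 (adjusted p = 3.36e-04). This and all other adjusted p-values are Benjamini-Hochberg values over all genes tested, from the quasi-likelihood test of edgeR. When single samples were left out, the adjusted p of M1BP lay between 0.00103 and 0.00228, each above the threshold of 0.001 used for calls below. Libraries held between 37908823 and 64871987 counts, of which the mtDNA-encoded genes took 71.5% to 76.3% in WT and 54.0% to 59.4% upon M1BP RNAi. The relation of a gene's deviation from its own group's mean to its exon length also varied between the libraries of a group. Its Spearman correlation over 1588 genes ran from −0.32 to 0.36 in WT and from −0.30 to 0.35 upon M1BP RNAi. The 8 flight muscle markers together were at 19605 to 20805 CPM in WT and at 23271 to 33198 CPM upon M1BP RNAi, with 2 of them called higher and 1 lower. The 5 markers of other muscle types were at 88.4 to 174 CPM in WT and at 151 to 378 CPM upon M1BP RNAi, with none called. Markers of other cells were detected in every library, and the 6 fat body genes summed to 949 to 1665 CPM in WT and to 245 to 507 CPM upon M1BP RNAi, with none of the 6 called and none at 0. Blood cell (48.7 to 59.6 and 25.8 to 36.3 CPM) and neuron markers (60.6 to 81.7 and 29.6 to 40.9 CPM) were also lower upon M1BP RNAi, with none called. The sums of the 3 trachea markers overlapped, at 6.38 to 6.81 CPM in WT and 3.21 to 6.44 CPM upon M1BP RNAi, with none called. The part of such cells in the results was not tested. In pooled tissue, fewer cells of a type and less RNA per cell cannot be told apart.

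Of the 10 genes, 1 was called lower upon M1BP RNAi and none higher, by a rule that asked for an adjusted p no higher than 0.001 together with a 1.5-fold change or more. Over all 9276 genes tested, 17.5% were called by this rule, 6.58% lower and 11% higher. The gene called was the assembly factor l(2)k14505. As its fall was already reported from these data, this call is not independent of the choice of genes. None of the 9 subunits was called, and their adjusted p-values ran from 0.192 to 0.984. The groups did not overlap for 1 of the 10 genes, again l(2)k14505, against 64.2% of all genes tested (31.1% with the RNAi samples lower and 33.1% with them higher).

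The assembly factor l(2)k14505 (FBgn0021856) lies on the plus strand of chromosome 2L:21261168-21262411 (release 6), with 2 annotated transcripts. Its reads numbered 364, 513 and 651 in WT samples 1 to 3, against 150, 177 and 251 in the M1BP RNAi samples. In CPM these were 11.9, 12.98 and 11.7 in WT against 2.95, 3.38 and 2.92 upon M1BP RNAi. Every WT sample was above every RNAi sample, and the distance between the groups was far larger than the spread within either. The mean fell from 12.2 ± 0.682 CPM (SD, n = 3) to 3.08 ± 0.256 CPM (SD, n = 3), a 3.96-fold difference (log2 fold change −1.98, standard error 0.12, 95% interval −2.25 to −1.72, adjusted p = 1.53e-05). Left-out samples moved the log2 fold change between −2.05 and −1.93, and the call held in all 6 fits. Per 1000000 nuclear counts the gene was at 34.0, 41.1 and 35.2 in WT and at 8.60, 10.2 and 9.24 upon M1BP RNAi, so the fall was also present when the mtDNA-encoded counts were left out of the denominator. Scaling by total library size alone gave −1.24, in a fit where the median of all genes tested moved to 0.77.

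**Figure D1:**
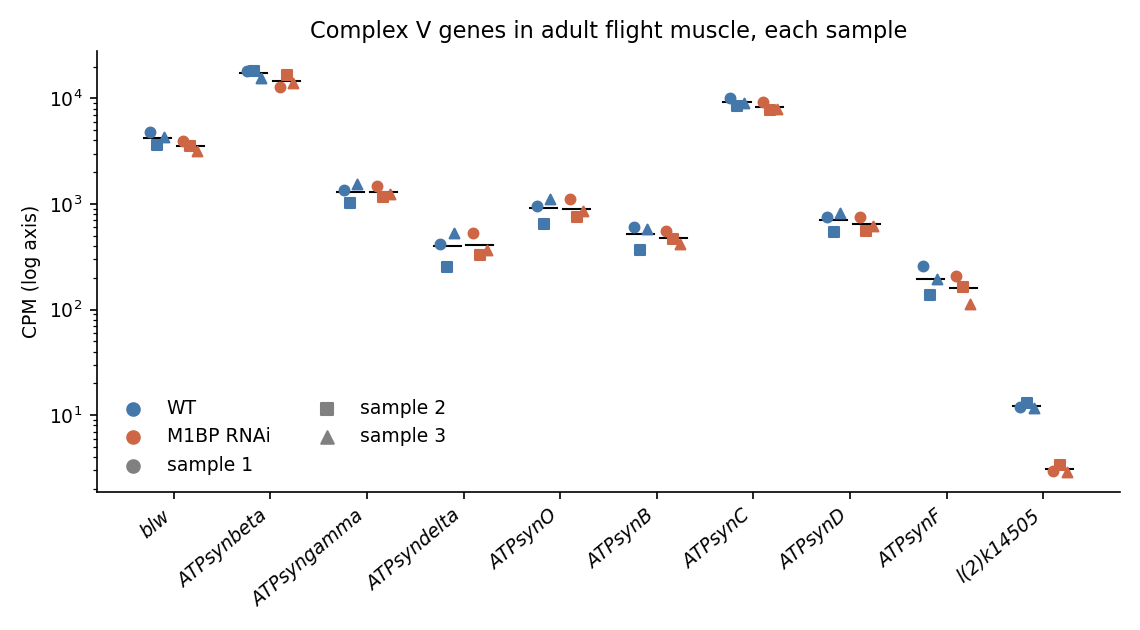
CPM (log axis) of the 10 genes in each of the 6 samples, WT in blue and M1BP RNAi in orange, with the sample number as marker shape and the group mean as a black line. For l(2)k14505 the WT samples sit between 11.7 and 12.98 CPM and the RNAi samples between 2.92 and 3.38 CPM, while the groups overlap for each of the 9 subunits.

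Neither gene of the catalytic head was called. ATPsynbeta, the catalytic subunit (chromosome 4), was at 18033, 18256 and 15723 CPM in WT samples 1 to 3, against 12874, 16661 and 14131 CPM in M1BP RNAi samples 1 to 3. The highest RNAi sample lay above the lowest WT sample, and the log2 fold change of −0.25 had a 95% interval from −0.61 to 0.10 (adjusted p = 0.192). The alpha subunit blw ("bellwether", chromosome 2R), which alternates with beta around the head, was at 4808, 3608 and 4297 CPM in WT and at 3928, 3578 and 3148 CPM upon M1BP RNAi. These groups overlapped as well, with a log2 fold change of −0.25 (95% interval −0.62 to 0.11, adjusted p = 0.205).

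The central stalk genes had estimates near 0 with wide intervals. ATPsyngamma, the shaft that turns inside the head (chromosome 3R), was at 1363, 1024 and 1540 CPM in WT and at 1489, 1157 and 1231 CPM upon M1BP RNAi, a log2 fold change of −0.02 (95% interval −0.45 to 0.41, adjusted p = 0.940). ATPsyndelta, at the foot of the central stalk (chromosome X), was at 420, 251 and 530 CPM in WT and at 526, 332 and 365 CPM upon M1BP RNAi, a log2 fold change of 0.03 (95% interval −0.64 to 0.70, adjusted p = 0.943). ATPsyndelta had the widest WT spread of the 10 genes, with a coefficient of variation of 35.0%, so its interval covers changes that the interval of ATPsynbeta (WT coefficient of variation 8.09%) does not.

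In the membrane part, ATPsynC, which encodes the c subunit of the rotor ring (chromosome 3R), was at 10054, 8403 and 9054 CPM in WT and at 9266, 7777 and 7858 CPM upon M1BP RNAi. The estimate was −0.14 on the log2 scale (95% interval −0.48 to 0.19, adjusted p = 0.419), the narrowest interval among the subunits. ATPsynF, a small membrane subunit (chromosome 2R), was at 257, 138 and 196 CPM in WT and at 207, 164 and 113 CPM upon M1BP RNAi. It had the lowest estimate of the 9 subunits, −0.29 (95% interval −0.94 to 0.36, adjusted p = 0.410), with WT sample 2 below RNAi samples 1 and 2.

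The groups overlapped for all 3 peripheral stalk genes. ATPsynO, whose product joins the stalk to the top of the head, was at 964, 644 and 1119 CPM in WT and at 1117, 747 and 851 CPM upon M1BP RNAi (log2 fold change −0.01, 95% interval −0.56 to 0.54, adjusted p = 0.984). ATPsynB, the membrane-anchored rod of the stalk, was at 608, 365 and 581 CPM in WT and at 550, 462 and 419 CPM upon M1BP RNAi (log2 fold change −0.12, 95% interval −0.62 to 0.38, adjusted p = 0.663). ATPsynD, which packs against subunit b, was at 745, 546 and 814 CPM in WT and at 761, 558 and 623 CPM upon M1BP RNAi (log2 fold change −0.12, 95% interval −0.56 to 0.33, adjusted p = 0.627). In each of them WT sample 2 was the lowest of the 6 samples.

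Over the 9 subunits the median log2 fold change was −0.12, beside 0.02 for all genes tested, and 8 of the 9 estimates were below 0. This order depends on the scaling, since with total library size all 9 were above 0 (median 0.63, against 0.77 for all genes), and leaving out single samples put between 0 and 4 of the 9 above 0. The lowest bound of any subunit's interval was −0.94, above the upper bound of −1.72 of l(2)k14505. A fall of the size seen in l(2)k14505 was therefore outside the interval of each subunit, while changes of up to 1.92-fold down or 1.62-fold up were inside some of them. As a share of all nuclear counts, the 9 subunits together took 10.7%, 10.5% and 10.1% in the 3 WT samples, against 8.97%, 9.53% and 9.08% in the 3 M1BP RNAi samples, with no overlap between the groups. As a share of all counts the order was the other way round, 2.53%, 2.61% and 2.90% in WT against 4.12%, 3.86% and 3.81% upon M1BP RNAi. ATPsynbeta alone took 5.17%, 5.78% and 4.71% of the nuclear counts in the WT samples. Upon M1BP RNAi it took 3.76%, 5.05% and 4.47%, so its groups overlapped.

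The subunits moved together from sample to sample in a way that did not follow the groups. WT sample 2 was the lowest WT sample in 8 of the 9 subunits, the exception being ATPsynbeta, and RNAi sample 1 was the highest RNAi sample in 8 of 9, again with ATPsynbeta as the exception. Relative to each gene's mean over the 6 samples (log2 CPM), the median subunit was at 0.19, −0.33 and 0.25 in WT samples 1 to 3 and at 0.19, −0.15 and −0.15 in RNAi samples 1 to 3. The length relation named above was taken within each group, so it cannot be compared between groups. In WT it was highest in sample 2 (0.36) and lowest in sample 3 (−0.32). Upon M1BP RNAi it was highest in sample 2 (0.35) and lowest in sample 1 (−0.30). The exon lengths of the 9 subunit genes run from 615 bases (ATPsynF) to 3817 bases (ATPsyndelta). In a fit with length-dependent offsets, added after the libraries were seen to differ in this relation, the median of the 9 subunits was −0.37, and the lowest adjusted p among them was 0.0404 (ATPsynD). Its offsets came from each gene's deviation from its mean over the 6 samples, so they also take up length trends that differ between the groups. In that fit l(2)k14505 was at −2.34 and was again the single gene of the 10 to be called.

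**Figure D2:**
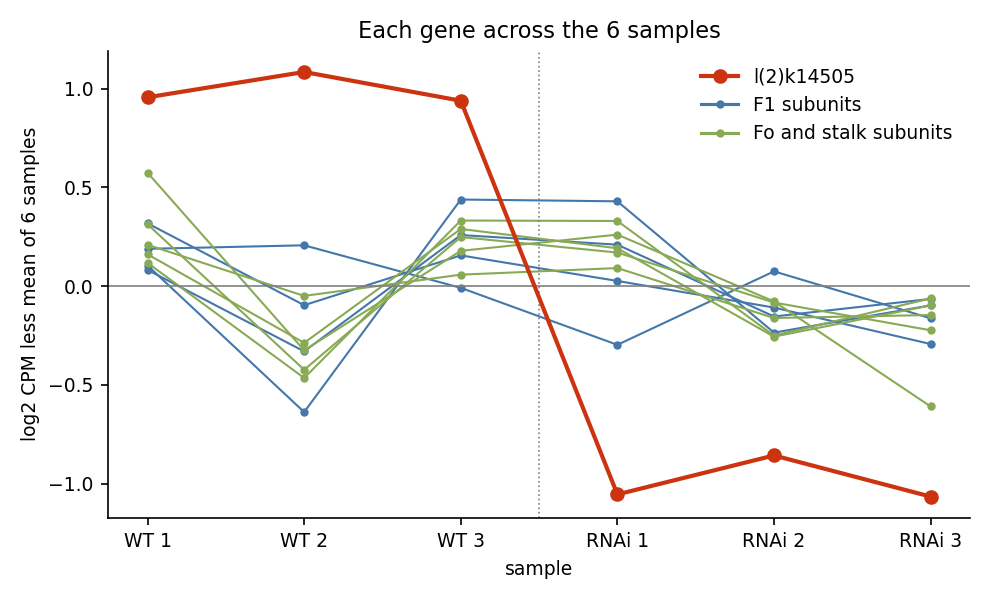
log2 CPM of each gene less its own mean over the 6 samples, with l(2)k14505 in red, the F1 subunits in blue and the Fo and peripheral stalk subunits in green. The median subunit is at −0.33 in WT sample 2, below all RNAi samples, and at 0.19 in RNAi sample 1, whereas l(2)k14505 stays above 0 in all WT samples and below 0 in all RNAi samples.

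Per kilobase of exon, the scale used here to rank the genes by level, WT muscle held ATPsynbeta at 7266 ± 588 CPM per kb (SD, n = 3) and ATPsynC at 4631 ± 420 CPM per kb. Next came blw at 1882 ± 268, ATPsynO at 1134 ± 302, ATPsyngamma at 897 ± 180, ATPsynD at 739 ± 147, ATPsynB at 564 ± 145 and ATPsynF at 320.2 ± 97.0 CPM per kb. In this order ATPsynO and ATPsyngamma, and ATPsyngamma and ATPsynD, differed by less than the larger of their SDs, and the other neighbours by more. ATPsyndelta followed at 105 ± 36.8 CPM per kb, with 3817 bases of exon in the count table. The assembly factor was lowest, at 11.6 ± 0.646 CPM per kb in WT and 2.92 ± 0.243 CPM per kb upon M1BP RNAi.

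Ratios inside a library do not depend on how libraries are scaled. The length relation named above, which varied between libraries, does not cancel in ratios of genes of different length. On the log2 scale of CPM per kb, l(2)k14505 less the mean of the 9 subunits was −6.60, −5.97 and −6.60 in the WT samples, against −8.54, −8.04 and −8.20 in the M1BP RNAi samples. The groups were apart, and the means differed by −1.87, which is 3.65-fold. Against the F1 subunits alone the difference was −1.87, against the Fo and stalk subunits −1.86, and against the summed subunits −1.80. These are scores over chosen genes and carry no test, and an exact permutation test of 3 samples against 3 could not give a p below 0.1.

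For the ratios between subunit transcripts given here, the difference between the groups was smaller than the spread between samples, and not every pair of subunits was computed. The mean log2 level of the F1 genes less that of the Fo and stalk genes was 0.20 ± 0.10 in WT (SD, n = 3) and 0.21 ± 0.11 upon M1BP RNAi. ATPsynbeta to blw was 1.96 ± 0.26 in WT and 1.95 ± 0.28 upon M1BP RNAi, or 3.88 and 3.86 on the linear scale. ATPsynC to ATPsynbeta was −0.65 ± 0.17 and −0.54 ± 0.31, and ATPsyngamma to ATPsynO was −0.32 ± 0.11 and −0.34 ± 0.11.

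**Figure D3:**
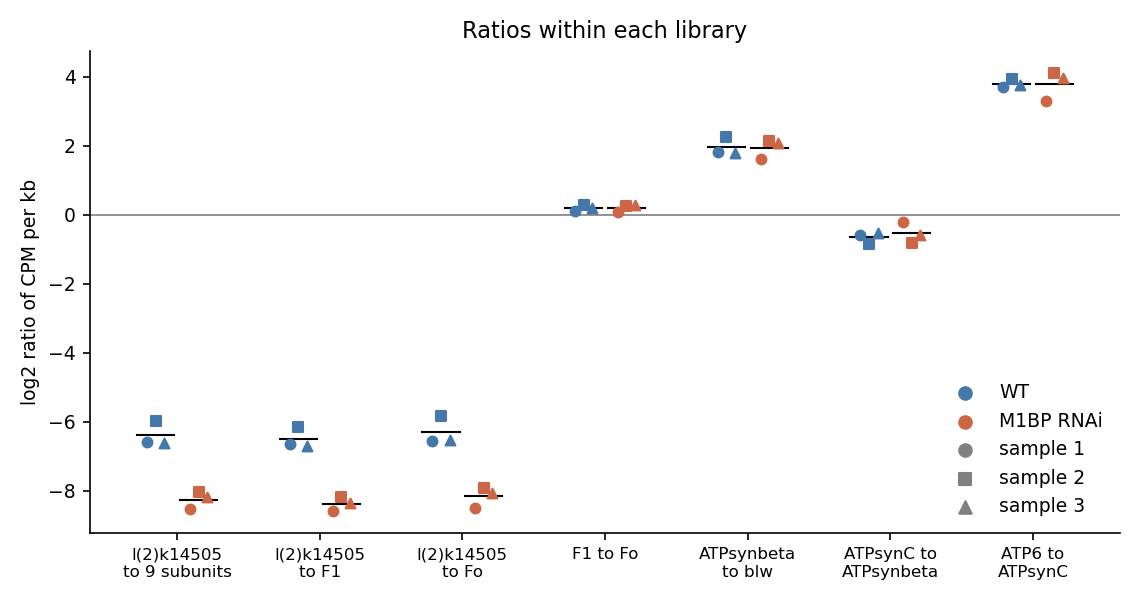
log2 ratios of CPM per kb inside each library, WT in blue and M1BP RNAi in orange, with group means as black lines. The ratios of l(2)k14505 to the subunits separate the groups (means −6.39 and −8.26 for all 9), and the other ratios plotted, with the mtDNA-encoded ATP6 included, overlap.

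Of the 5 further structural subunit genes (ATPsynE, subunit e; ATPsynG, subunit g; sun, the epsilon subunit; ATPsynCF6, coupling factor 6; and Neb-cGP) none was called, with estimates from −0.29 to 0.28 and a median of −0.06. The mtDNA-encoded ATP6, subunit a of the proton channel, was at −0.12 on the log2 scale (adjusted p = 0.577) and ATP8 at −0.43 (adjusted p = 0.0904). The ratio of ATP6 to ATPsynC, the partners of the proton path, was 3.80 ± 0.13 in WT and 3.81 ± 0.44 upon M1BP RNAi on the log2 scale. The paralogs ATPsynbetaL, ATPsynGL, ATPsynCF6L and ATPsynepsilonL had at most 13 counts in any library and were not tested.

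Of the 6 other assembly factor genes in the study's list, 1 was called, and it was higher. OXA1L, whose yeast and human counterparts insert proteins into the inner mitochondrial membrane, was at 3.72, 3.49 and 4.69 CPM in WT samples 1 to 3, against 14.7, 11.3 and 11.8 CPM in M1BP RNAi samples 1 to 3. Its groups did not overlap, and it rose 3.16-fold (log2 fold change 1.66, 95% interval 1.29 to 2.04, adjusted p = 1.44e-04), although the adjusted p passed 0.001 when WT sample 1 or WT sample 2 was left out, reaching 0.00146 at most. The log2 fold change was 0.70 for CG10731 (adjusted p = 0.00106) and 0.71 for CG5131 (adjusted p = 0.00104), both above the threshold for a call although their groups did not overlap. CG10340 (0.05), CG7506 (0.29) and VhaAC45 (−0.21) were not called. The share of 1 in 6 is near the 17.5% of all genes called, and the median log2 fold change was 0.49 for these 6 genes and 0.02 for all genes tested.

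CG34423, which the study files under oxidative phosphorylation, rose upon M1BP RNAi. It was at 5.58, 2.83 and 6.16 CPM in WT and at 63.3, 55.6 and 60.0 CPM upon M1BP RNAi, a 12.3-fold rise (log2 fold change 3.62, 95% interval 2.96 to 4.27, adjusted p = 5.37e-05). All RNAi samples were far above all WT samples. CG13551, for which RefSeq gives the synonym ATPIF1, the name of the inhibitor of ATP hydrolysis by the enzyme, was not called, with 0.97 on the log2 scale (adjusted p = 0.00270).

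The carriers that work beside the enzyme were not called either. The log2 fold change of sesB, the main ADP/ATP carrier of flight muscle, was −0.31 (adjusted p = 0.0752). That of Ant2, another ADP/ATP carrier, was 0.50 (adjusted p = 0.0105). The spans of sesB and Ant2 overlap on the same strand of chromosome X, and whether they share reads was not tested. For the phosphate carriers the log2 fold change was 0.32 for Mpcp1 (adjusted p = 0.217) and −0.73 for Mpcp2 (adjusted p = 0.00518). Over the 19 further Complex V and carrier genes tested, 2 were called, both higher, which is close to the 11% of all genes called higher.

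**Figure D4:**
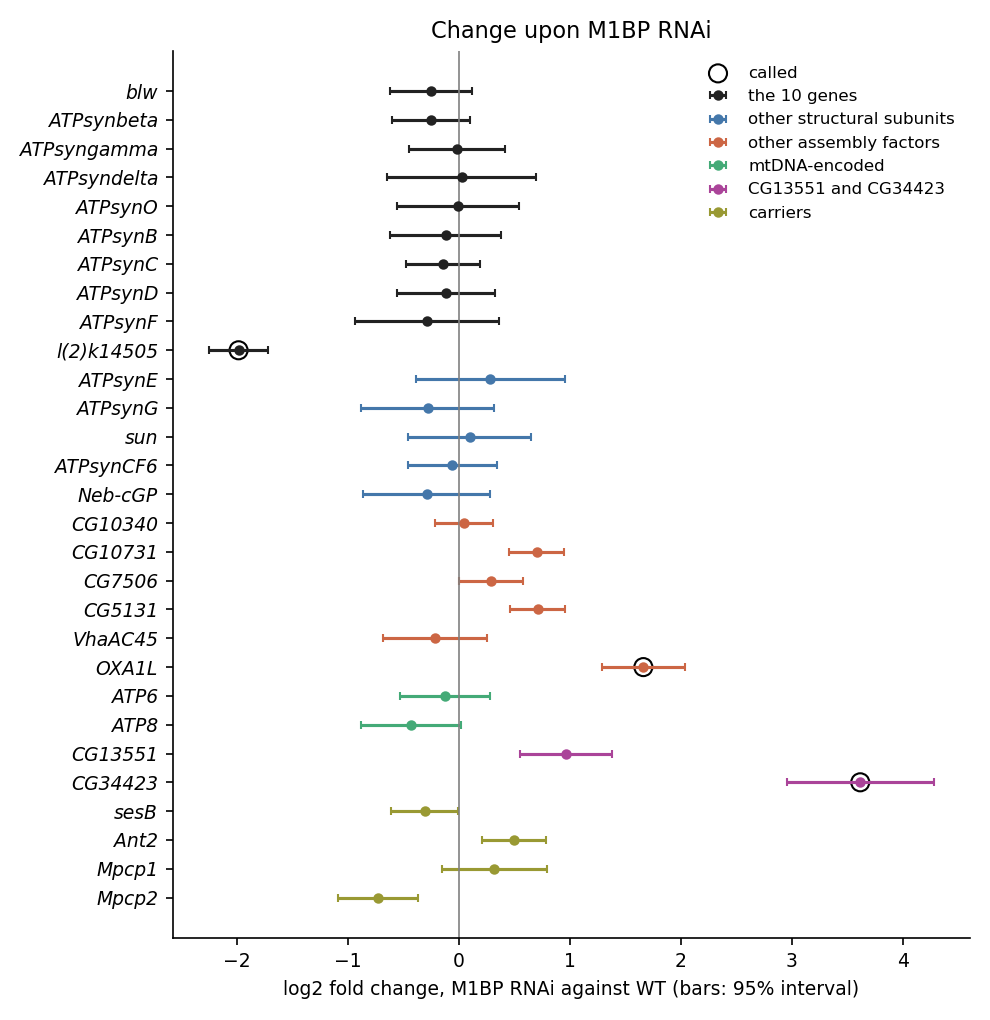
log2 fold change of M1BP RNAi against WT with its 95% interval for the 10 genes and the other Complex V and carrier genes, where a ring marks a called gene. The intervals of the 9 subunits lie between −0.94 and 0.70, l(2)k14505 is at −1.98, OXA1L at 1.66 and CG34423 at 3.62.

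The counts by complex stand beside 11% of all genes tested called higher and 6.58% called lower. The 14 nuclear structural subunit genes of Complex V in the study's list had log2 fold changes from −0.29 to 0.28 with 0 called, while those of Complex I ran from −2.32 to 0.56 (3 of 36 called, all lower) and those of Complex III from −4.98 to 0.35 (1 of 9 called, lower). Complex IV (10 genes) ran from −0.85 to 0.35 and Complex II (4 genes) from −0.50 to 0.08, with 0 called in each. Among assembly factors, 2 of 7 were called for Complex V, 1 higher and 1 lower. For Complex IV, 10 of 20 tested were called, 7 higher and 3 lower. For Complex I, 2 of 12 were called, both higher, and for Complexes II and III 0 were called. These are descriptions, and no difference between complexes was tested.

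**Figure D5:**
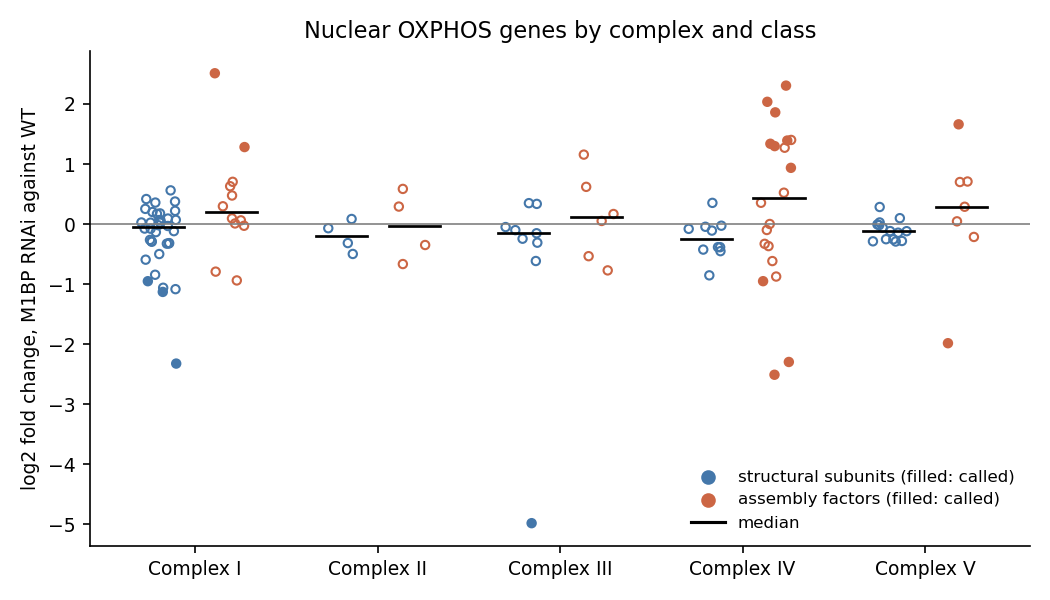
log2 fold change of each nuclear OXPHOS gene by complex, structural subunits in blue and assembly factors in orange, with filled points for called genes and black lines for medians. The structural subunits of Complex V lie between −0.29 and 0.28, and its assembly factors between −1.98 (l(2)k14505) and 1.66 (OXA1L).

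Genes next to the 10 were examined because neighbours can share reads or a promoter region. Of 28 genes overlapping one of them or lying within 2000 bases, 23 were tested, and 5 of these were called higher and 3 lower, beside 11% and 6.58% of all genes tested. A called neighbour was found for 6 of the subunit genes, while none of the subunits was called. CG15309, on the opposite strand 595 bases from ATPsyndelta, fell from 74.4, 73.0 and 50.8 CPM in WT to 15.9, 18.0 and 17.01 CPM upon M1BP RNAi (log2 fold change −1.96, adjusted p = 9.10e-05). Close to ATPsynD, cdi fell (−1.67), while mRpL55, a mitochondrial ribosomal protein gene that starts 94 bases away on the opposite strand, rose from 1.89, 1.90 and 1.96 CPM to 6.31, 4.66 and 4.52 CPM (1.42, adjusted p = 3.35e-04).

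CG11076, which shares 191 exon bases with ATPsynbeta on the opposite strand, rose from 3.78, 4.35 and 4.60 CPM to 10.3, 9.85 and 11.2 CPM (1.296, adjusted p = 1.17e-04), against 12874 CPM or more for ATPsynbeta in every sample. IntS11 near ATPsyngamma (1.04), Set near ATPsynO (1.79) and CG1542 near ATPsynC (1.27) were also called higher, and RNaseP:RNA, which lies inside ATPsynC without sharing exon bases, was called lower (−1.28). When single samples were left out, IntS11, Set, CG1542, RNaseP:RNA and mRpL55 each lost the call in at least 5 of 6 fits, and CG11076, CG15309 and cdi kept it in all 6. CG2962 shares 1358 exon bases with ATPsyndelta on the opposite strand and had 0 counts in every library. As the strand setting of the counting is not given, whether reads over these bases were counted for ATPsyndelta or left unassigned cannot be told apart. The neighbours of l(2)k14505 were not called: the log2 fold change was −1.12 for CG8671, 544 bases away (adjusted p = 0.00173), and 0.04 for Hr39, 1492 bases away (adjusted p = 0.849).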

How the data were processed

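The 6 adult samples were assigned to WT and M1BP RNAi, and numbered, from their sample labels. Myoblast and pupal samples were not analysed here. The authors deposited whole-number counts of reads per gene over its exons, without normalization, and per the labels' processing notes the tools were bcl2fastq 2.17.1.14, Subread, featureCounts and DESeq2 on build dm6. The role of each tool and the strand setting are not given in the sources used here. A table of the authors' own DESeq2 comparison (fold changes and p-values) was used only to join gene symbols to identifiers. All columns of per-sample counts were used.

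Counts were tested with the quasi-likelihood test of edgeR 4.0.16 (R 4.3.3, TMM normalization, filterByExpr, group as the only term) with Benjamini-Hochberg adjustment over the 9276 genes kept. A gene was called where the adjusted p was no higher than 0.001 and the change was 1.5-fold or more, the thresholds of the study. Standard errors and 95% intervals came from the F statistic of each gene. CPM are counts per 1000000 of the TMM-scaled library, and CPM per kb divides them by the exon length in the table. Tables and ratios were made with Python 3.11.15 (pandas 2.3.3). Totals per sample ran from 37908823 to 64871987 counts, and intervals cover the spread between these samples only. The fitting was tested on simulated data first.

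The positions of the 10 genes were the same in Ensembl 115. The Motif 1-like sequences came from the study's supplement, whose values were not used. The genes named are the 10 genes, M1BP, the other Complex V, inhibitor, paralog and carrier genes of fixed lists, and called neighbours within 2000 bases. CG2962, CG8671 and Hr39 were named after their values were seen. The genes and lists were chosen with earlier results of these data known. The alternatives were DESeq2 1.42.0, RLE, total library size, nuclear genes only, no filter on low counts, an adjusted p of 0.05, no minimum fold, the replicate number as a block, each sample left out and, added after seeing the data, length-dependent offsets.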

Additional observations from a re-analysis of the deposited data

How the results depend on the processing

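The fall of l(2)k14505 was called under every alternative tried, with log2 fold changes from −2.34 (length-dependent offsets) to −1.24 (total library size), and it was the single gene of the 10 called in each of them. With each sample left out its value ran from −2.05 to −1.93, and its log2 ratio to the 9 subunits from −1.97 to −1.66. M1BP, called in the main setting, was not called with any sample left out. It was also not called with total library size (log2 fold change −0.61, adjusted p = 0.0136) or with the replicate number as a block (−1.35, adjusted p = 0.00205). The number of genes called over all genes tested, 1626, ran from 602 (WT sample 1 left out) to 1278 in the leave-one-out fits (683 without RNAi sample 2, 680 without RNAi sample 3, 709 without WT sample 2). It was 2962 with DESeq2, 4373 at an adjusted p of at most 0.05 and 2713 with total library size, where 94.95% of the calls were higher against 62.5% in the main setting. Of the other Complex V and carrier genes, 2 were called, 1 to 2 in the leave-one-out fits (1 without WT sample 1 or WT sample 2, where OXA1L missed the threshold), 4 with no filter on low counts, 6 with DESeq2, 6 at an adjusted p of at most 0.05 and 7 with total library size.

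Signs of genes that were not called changed more freely. With total library size the log2 fold change was 0.50 for blw, 0.50 for ATPsynbeta, 0.73 for ATPsyngamma, 0.74 for ATPsynO, 0.64 for ATPsynB, 0.61 for ATPsynC, 0.63 for ATPsynD, 0.48 for ATPsynF, 0.47 for ATPsynG, 0.69 for ATPsynCF6, 0.46 for Neb-cGP, 0.51 for VhaAC45, 0.62 for ATP6, 0.29 for ATP8, 0.45 for sesB and 0.00423 for Mpcp2, all below the median of 0.77 over all genes in that fit. Length-dependent offsets gave −0.0766 for ATPsynE, −0.19 for sun, −0.33 for CG10340 and −0.0861 for CG7506. No filter on low counts gave 0.0122 for ATPsyngamma and 0.0235 for ATPsynO. Leaving out samples moved ATPsyngamma from −0.16 to 0.12, ATPsyndelta from −0.21 to 0.29, ATPsynO from −0.19 to 0.18, ATPsynB from −0.31 to 0.0330, ATPsynD from −0.26 to 0.0111, sun from −0.13 to 0.28, ATPsynCF6 from −0.20 to 0.0272, VhaAC45 from −0.32 to 0.0561 and ATP6 from −0.24 to 0.0302. The cause was not tested in any of these.

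With the replicate number as a block, 790 genes were called and ATPsynO was at 0.0114, while l(2)k14505 was at −1.98 and called. The labels do not say whether the numbers pair the samples. Same-numbered samples deviated together with a correlation between −0.02 and 0.18 (3 pairs), and differently numbered ones between −0.34 and 0.28. With 3 samples per group these correlations cannot decide whether the numbers pair the samples, so the block is given as a value only. A planned comparison of promoter windows was not run, because no promoter sequence was given. The lowest of the 10 genes, l(2)k14505, rested on 150 to 651 counts per library and the intervals of all 10 genes on 3 samples per group.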

Other observations

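Some genes beside those of the comparison had values that a reader may want to follow. The paralog ATPsynepsilonL, too low for the test, had 2, 1 and 1 counts in the WT samples against 8, 8 and 13 counts in the M1BP RNAi samples, so every RNAi sample was above every WT sample. CycB, a cyclin gene 1340 bases from blw, had 37, 33 and 45 counts in WT and 169, 11 and 12 counts upon M1BP RNAi, so that RNAi sample 1 alone stood above the WT samples (3.32 CPM against 0.811 to 1.21 CPM). CaMKII, a calcium-dependent kinase gene 370 bases from ATPsynbeta, had a mean of 186 CPM in WT and 108 CPM upon M1BP RNAi, with a log2 fold change of −0.78 (adjusted p = 0.00317 by edgeR's quasi-likelihood test) that did not meet the threshold of 0.001. These genes were chosen after their values were seen.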
